A study of Mus musculus with 9 samples.

Results

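Map1a, Map1b, Map2, Map4 and Mapt encode microtubule-associated proteins, and Crmp1, Dpysl2 and Dpysl3 encode collapsin response mediator proteins (CRMPs). The 8 genes were followed through every probe set that the platform annotation gives to one of them alone, 24 of the 45037 probe sets on the array that are not controls. The array holds 18193 genes with a probe set of their own. Map4 had 5 probe sets, Map2 and Mapt had 4 each, Map1b and Dpysl3 had 3 each, Map1a and Dpysl2 had 2 each, and Crmp1 had 1. Probe sets were assigned to these genes by the annotation and by no measured value. The genes themselves were chosen with earlier results of these data known. RNA was measured on 9 single-channel mouse expression arrays in 3 groups of 3. The groups were motor neurons of SOD1 mutant mice, motor neurons of wild-type (WT) mice, and total spinal cord of WT mice. The neurons were collected by laser capture microdissection, in which cells seen under a microscope are cut out of a tissue section with a laser. SOD1 encodes superoxide dismutase 1, and its mutation underlies a familial form of amyotrophic lateral sclerosis, in which motor neurons degenerate. The labels do not name the SOD1 allele or say whether it is a transgene, and they leave out the age of the mice, the stage of disease and the way in which neurons were recognised. A code in every title, D28, is not explained. The titles place every sample in ventral spinal cord, whereas the descriptions of the tissue samples speak of the total cord. Nothing in the labels says that the arrays of a group came from separate animals, so p-values measure the spread between arrays, which may be technical in part, and 3 arrays per group limit the precision.

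Microtubules are the tracks of axonal transport and the scaffold of axons and dendrites, and the proteins that bind them set how stable and how closely spaced they are. Map1a and Map1b are related long proteins cut into heavy and light chains, of which Map1b is known for growing axons and Map1a for mature neurons. Map2, Map4 and Mapt (tau) share a microtubule-binding repeat domain: Map2 is known for dendrites and cell bodies, tau for axons, and Map4 for many non-neuronal cells. CRMPs are cytosolic phosphoproteins that relay semaphorin 3A signals inside the growth cone. Dpysl2, also called CRMP2, binds tubulin and aids its assembly, Crmp1 acts in the same semaphorin pathway, and Dpysl3, also called CRMP4, is known for its action on actin in growing neurites.

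Promoter sequences of 5 of the 8 genes, 7 promoters in all, were matched by symbol in RefSeq for the assembly GRCm38.p6. Those of Map2 and Map1b, and 1 of the 2 of Map4, are shown for their changes against cord. Under the authors' scaling, Map2 and Map4 lay lower and the brightest probe set of Map1b lay higher in WT motor neurons than in cord. Each is the 250 bases before an annotated transcript start, written 5′ to 3′ on the strand of the gene. Capitals mark the motifs GGGCGG (the GC box), TATAAA and CCAAT, each searched on both strands, so that a reverse match reads CCGCCC or ATTGG. No other motif was searched.
Map2, chr1:66175079-66175328, plus strand: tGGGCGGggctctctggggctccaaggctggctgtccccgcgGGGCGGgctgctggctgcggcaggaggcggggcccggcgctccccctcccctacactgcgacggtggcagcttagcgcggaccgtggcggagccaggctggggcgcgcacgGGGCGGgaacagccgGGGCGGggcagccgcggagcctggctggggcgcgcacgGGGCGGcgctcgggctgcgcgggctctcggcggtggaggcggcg
Map4, chr9:109931524-109931773, plus strand: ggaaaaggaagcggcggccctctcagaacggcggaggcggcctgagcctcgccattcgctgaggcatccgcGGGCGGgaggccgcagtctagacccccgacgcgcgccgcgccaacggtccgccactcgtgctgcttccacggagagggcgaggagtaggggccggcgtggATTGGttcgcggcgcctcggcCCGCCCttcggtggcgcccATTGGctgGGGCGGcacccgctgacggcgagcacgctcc
Map1b, chr13:99516603-99516852, minus strand: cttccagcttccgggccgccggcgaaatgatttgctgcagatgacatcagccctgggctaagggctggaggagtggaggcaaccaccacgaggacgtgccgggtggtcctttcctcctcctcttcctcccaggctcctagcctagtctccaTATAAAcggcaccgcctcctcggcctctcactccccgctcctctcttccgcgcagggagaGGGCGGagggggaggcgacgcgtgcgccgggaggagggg
The Map2 window was 81.2% G and C and held GGGCGG 5 times. The Map4 window shown was 74% G and C, with GGGCGG 3 times and CCAAT 2 times. The other Map4 window, not shown, was 43.6% G and C, with CCAAT 1 time and no GGGCGG. The Map1b window was 66.4% G and C, with GGGCGG 1 time and TATAAA 1 time, 99 bases before the start. Over 32851 promoter windows of this length the median was 52.4% G and C, and 32.7% held GGGCGG, 12.4% held TATAAA and 33.8% held CCAAT. A match describes letters and not a bound site.

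The deposited values were linear signal intensities, in arbitrary units. Every array had a trimmed mean of 2500, and the median signal was 274 to 366 on SOD1-mutant motor neuron arrays, 269 to 313 on WT motor neuron arrays and 556 to 583 on cord arrays. The log2 ratio of the 3′ to the 5′ Gapdh control probe set averaged 4.49 ± 0.15 in SOD1-mutant motor neurons, 4.03 ± 0.44 in WT motor neurons and -0.28 ± 0.01 in cord (SD, n = 3 each). This ratio describes how far the labelled RNA reaches toward the 5′ end of a transcript. The place of the 24 probe sets on their transcripts was not known here, and the part of this ratio in their values was not tested. Of 10 motor neuron markers tested, 9 rose in SOD1-mutant motor neurons against cord (median log2 change 3.42) and 9 rose in WT motor neurons against cord (3.56), and Chat was not past the threshold in either. The markers of other cell types fell in SOD1-mutant motor neurons against cord, with 8 of 9 for oligodendrocytes and myelin (median log2 change -2.07), 9 of 10 for astrocytes (-2.43), 10 of 10 for microglia (-3.30), 9 of 9 for vessels and meninges (-4.27) and 8 of 9 for interneurons (-3.63). The corresponding falls in WT motor neurons were 9 of 9 (-2.09), 9 of 10 (-3.19), 10 of 10 (-3.67), 9 of 9 (-4.87) and 9 of 9 (-4.64) in the same order. Aif1, Pecam1, Igf2 and Ebf2 lay below background on all 6 motor neuron arrays, while summed myelin markers still read 329323 to 348184 in SOD1-mutant motor neurons and 272752 to 292000 in WT motor neurons, against 640926 to 747556 in cord. That sum follows its brightest marker, Mbp, which averaged 143077 in SOD1-mutant and 115170 in WT motor neurons, against 144186 in cord. Mag averaged 5096, 4775 and 55478 in the same order. In such bulk samples fewer cells of a type and less RNA per cell cannot be told apart.

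Against cord, most probe sets of Map2, Map4 and Mapt read lower in captured motor neurons of either genotype, and the probe sets of Dpysl3 read higher. For SOD1-mutant motor neurons 17 of the 24 probe sets passed the test, 3 higher and 14 lower, where 62.1% of all 27022 probe sets tested passed, 21.9% higher and 40.2% lower. In WT motor neurons 18 passed, 5 higher and 13 lower, where 65.5% of all passed, 24% higher and 41.5% lower. All 24 had passed the filter on dim probe sets. The median log2 change of the 24 was -0.82 in SOD1-mutant motor neurons, beside -0.37 over all probe sets, and -0.98 in WT motor neurons, beside -0.35 over all. Passing means an adjusted p under 0.05 in limma's moderated test on log2 values, adjusted over all probe sets tested by the method of Benjamini and Hochberg. Both comparisons with cord use the same 3 cord arrays, and each motor neuron group also enters the comparison of genotypes, so their values are set side by side and are not independent.

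**Figure D1:**
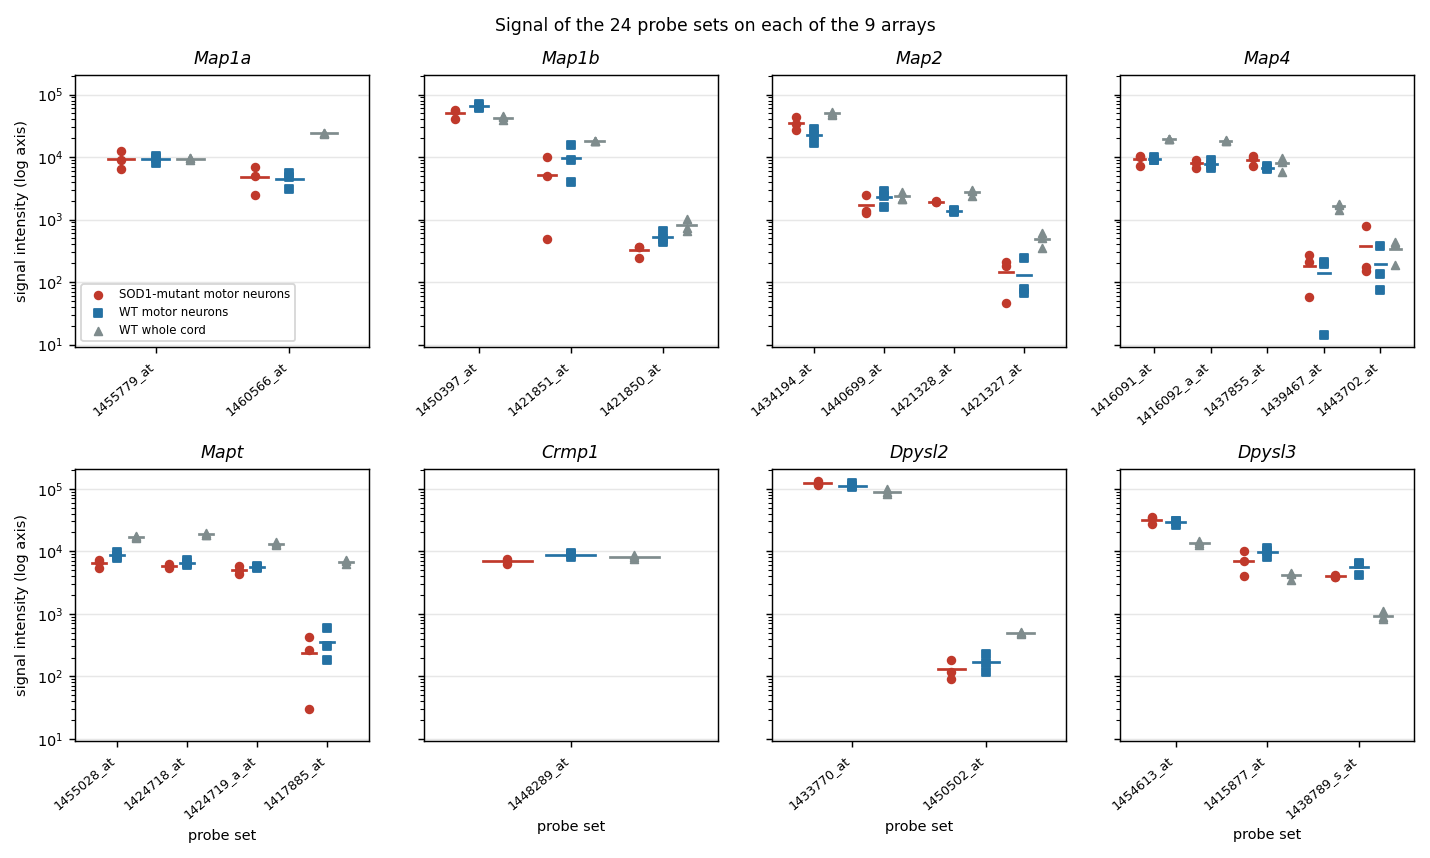
Signal intensity (log axis) of the 24 probe sets, with 1 panel per gene and 1 point per array, for SOD1-mutant motor neurons (red circles), WT motor neurons (blue squares) and WT cord (grey triangles). Horizontal lines are means of 3 arrays. The 4 Mapt probe sets lie lower in both motor neuron groups than in cord, and Dpysl3 1438789_s_at lies higher.

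Scaling bears on these counts, because the median probe set itself differed between captured neurons and cord. Over all probe sets, SOD1-mutant motor neurons differed from cord by a median log2 change of -0.37 under the authors' scaling, 0.13 after quantile normalization and 0.48 with each array centred on its median. WT motor neurons differed from cord by -0.35, 0.14 and 0.56 under the same scalings. The split of all calls into higher and lower in SOD1-mutant motor neurons was 5925 and 10859 under the authors' scaling, 9052 and 7293 after quantile normalization, and 11599 and 5157 after centring. For WT motor neurons the splits were 6494 and 11206, 9707 and 7618, and 12942 and 5269. The 24 probe sets split into 3 and 14 in SOD1-mutant motor neurons under the authors' scaling, 3 and 10 after quantile normalization, and 8 and 6 after centring. In WT motor neurons they split into 5 and 13, 3 and 11, and 9 and 4. Under all 3 scalings 8 of the 24 had the same call in SOD1-mutant motor neurons, the 4 probe sets of Mapt, Map1a 1460566_at and Map4 1439467_at, which fell, and Dpysl3 1454613_at and 1438789_s_at, which rose. The same held for 7 in WT motor neurons, Map1a 1460566_at, Map4 1439467_at, Mapt 1424718_at and Mapt 1417885_at, which fell, and the 3 probe sets of Dpysl3, which rose. The share of all probe sets with the same call under the 3 scalings is not given here, so these counts have no baseline.

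**Figure D2:**
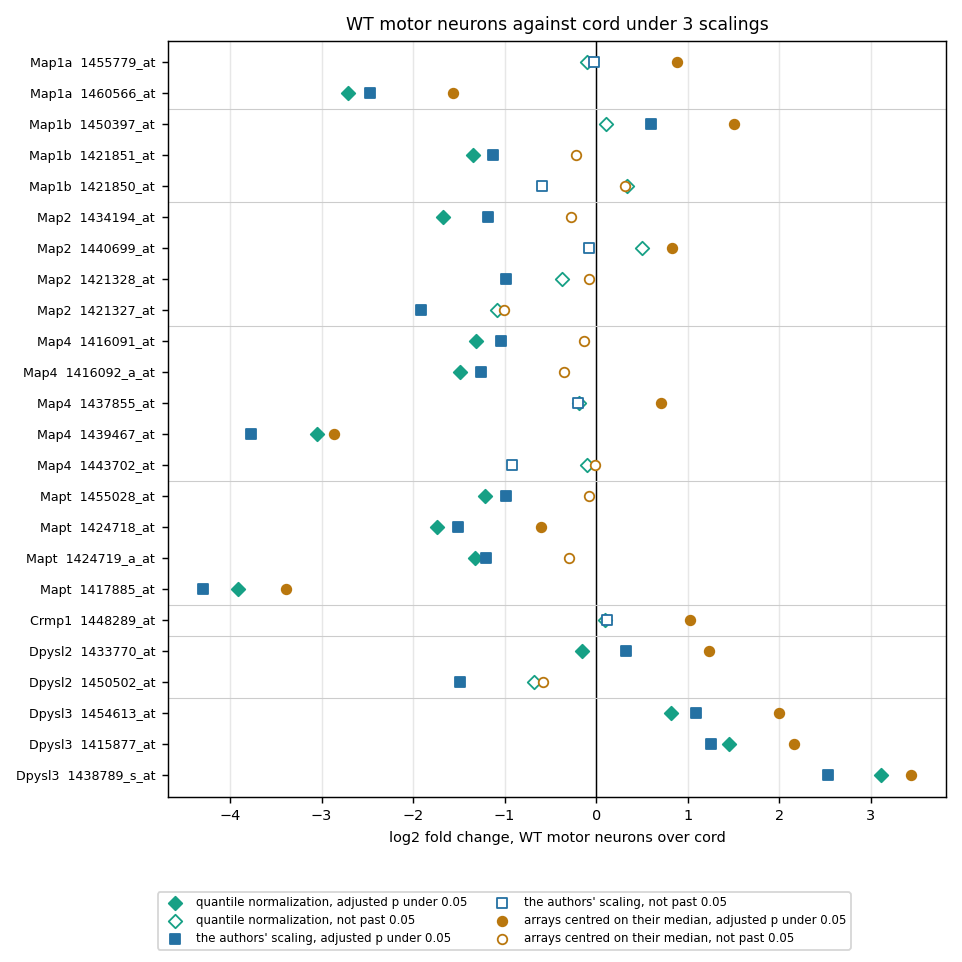
Log2 fold change of WT motor neurons over cord for the 24 probe sets, under quantile normalization (green diamonds), the authors' scaling (blue squares) and arrays centred on their median (ochre circles), filled where the adjusted p is under 0.05. The 3 Dpysl3 probe sets stay right of 0 under the 3 scalings, and Map1a 1455779_at moves from -0.03 under the authors' scaling to 0.88 after centring.

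Map1a was read by probe sets that differed from each other. The brightest, 1455779_at, read 8842, 6478 and 12295 in SOD1-mutant motor neurons, 7904, 10536 and 9584 in WT motor neurons, and 9558, 9739.6 and 9089.8 in cord. The 3 groups overlapped, and neither log2 change against cord passed, with -0.09 ± 0.21 (SE) in SOD1-mutant motor neurons (adjusted p = 0.733) and -0.03 ± 0.12 in WT motor neurons (adjusted p = 0.845). After centring the same changes were 0.76 in SOD1-mutant motor neurons (adjusted p = 0.0434) and 0.88 in WT motor neurons (adjusted p = 7.78e-05). The other probe set, 1460566_at, read 6967, 2521 and 4918 in SOD1-mutant motor neurons, 5507, 3043 and 4803 in WT motor neurons, and 23088, 24401 and 24639.8 in cord. All 6 motor neuron arrays lay far below the 3 cord arrays. The fall was 5.41-fold in SOD1-mutant motor neurons (log2 change -2.44 ± 0.31, adjusted p = 0.00022) and 5.54-fold in WT motor neurons (-2.47 ± 0.19, adjusted p = 7.84e-06), and both held under the 3 scalings.

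Map1b, the related protein of growing axons, moved in opposite directions on its probe sets in WT motor neurons. The brightest, 1450397_at, read 56734, 40103 and 55036 in SOD1-mutant motor neurons, 69749, 63593 and 61859 in WT motor neurons, and 46045, 39573 and 43157 in cord. WT motor neurons lay above both other groups on every array, while SOD1-mutant motor neurons overlapped with cord through replicate 2. The rise in WT motor neurons against cord was 1.52-fold (log2 change 0.60 ± 0.08, adjusted p = 0.000222), and the change was 0.11 after quantile normalization (adjusted p = 0.349) and 1.51 after centring (adjusted p = 3.38e-06). In SOD1-mutant motor neurons the change against cord was 0.22 ± 0.15 (adjusted p = 0.215), it was 0.38 (adjusted p = 0.0093) without SOD1-mutant replicate 2, and it was -0.30 (adjusted p = 0.141) after quantile normalization and 1.07 (adjusted p = 0.00288) after centring.

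Map1b 1421851_at spread widely within the captured groups. It read 9853, 498 and 5039 in SOD1-mutant motor neurons and 15787, 3931 and 9094 in WT motor neurons, against 18359, 17946 and 17799.6 in cord. Replicate 2 was lowest in both motor neuron groups, and the cord arrays were close together and above all 6 of them. The log2 change against cord was -2.61 ± 0.90 in SOD1-mutant motor neurons (adjusted p = 0.0331) and -1.12 ± 0.41 in WT motor neurons (adjusted p = 0.0364). After centring neither passed, with -1.76 in SOD1-mutant motor neurons (adjusted p = 0.149) and -0.22 in WT motor neurons (adjusted p = 0.683). The change in SOD1-mutant motor neurons was -1.35 (2.55-fold lower) without SOD1-mutant replicate 2 and -3.48 (11.1-fold lower) without SOD1-mutant replicate 1. These calls also rest on single arrays: the adjusted p in SOD1-mutant motor neurons was 0.0546 without SOD1-mutant replicate 3 and 0.0688 to 0.0733 without 1 cord array. The adjusted p in WT motor neurons was 0.0809 without WT motor neuron replicate 3 and 0.0760 to 0.0809 without 1 cord array. The dimmest, 1421850_at, read 245, 369 and 362 in SOD1-mutant motor neurons, 488, 652 and 435 in WT motor neurons, and 1029, 669 and 723 in cord, with no overlap between groups. Its fall against cord was 2.39-fold in SOD1-mutant motor neurons (-1.26 ± 0.31, adjusted p = 0.00687), lost under quantile normalization (-0.37, adjusted p = 0.29) and centring (-0.41, adjusted p = 0.234). In WT motor neurons the change was -0.60 ± 0.28 (adjusted p = 0.0862), and 0.34 after quantile normalization and 0.31 after centring.

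Map2, the protein of dendrites and cell bodies, was lower in WT motor neurons than in cord on 3 of its 4 probe sets under the authors' scaling. The brightest, 1434194_at, read 27459, 43565 and 33521 in SOD1-mutant motor neurons, 28369, 16697 and 22602 in WT motor neurons, and 49520.1, 53052 and 47354 in cord. Cord was highest on every array, and the motor neuron groups overlapped through SOD1-mutant replicate 1 and WT replicate 1. The fall against cord was 1.46-fold in SOD1-mutant motor neurons (log2 change -0.54 ± 0.16, adjusted p = 0.0181) and 2.26-fold in WT motor neurons (-1.18 ± 0.17, adjusted p = 0.000282). After centring the changes were 0.30 in SOD1-mutant motor neurons (adjusted p = 0.0619) and -0.27 in WT motor neurons (adjusted p = 0.277). The call in SOD1-mutant motor neurons was lost without SOD1-mutant replicate 3 (adjusted p = 0.0617), cord replicate 1 (0.0505) or cord replicate 2 (0.0623).

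The dimmer Map2 probe sets gave smaller signals and less certain calls. Probe set 1421328_at read 1892, 1911 and 1971 in SOD1-mutant motor neurons, 1309, 1420.1 and 1367 in WT motor neurons, and 2854, 2350.2 and 3011 in cord. The 3 groups were fully separate, with cord highest and WT motor neurons lowest. The fall against cord was 1.41-fold in SOD1-mutant motor neurons (-0.50 ± 0.15, adjusted p = 0.0192) and 1.98-fold in WT motor neurons (-0.99 ± 0.15, adjusted p = 0.000427). The change in SOD1-mutant motor neurons was 0.10 after quantile normalization (adjusted p = 0.593) and 0.35 after centring (adjusted p = 0.13), and in WT motor neurons it was -0.37 (adjusted p = 0.0587) and -0.08 (adjusted p = 0.664). Without cord replicate 1 or cord replicate 3 the fall in SOD1-mutant motor neurons had adjusted p-values of 0.0775 and 0.0992. Probe set 1440699_at, at 1277 to 2455 in SOD1-mutant motor neurons, 1589.7 to 2853 in WT motor neurons and 2111 to 2809.7 in cord, passed in neither comparison. Its change in SOD1-mutant motor neurons was -0.51 ± 0.27 (adjusted p = 0.123), and it was -0.81 (adjusted p = 0.00437) without SOD1-mutant replicate 2. Its change in WT motor neurons was -0.08 ± 0.23 (adjusted p = 0.783), and it was 0.83 (adjusted p = 0.018) after centring. Probe set 1421327_at lay above background on 2 of 3 SOD1-mutant, 1 of 3 WT motor neuron and 3 of 3 cord arrays. It fell by 3.38-fold in SOD1-mutant motor neurons (adjusted p = 0.0235, but 0.194 after quantile normalization and 0.227 after centring) and by 3.78-fold in WT motor neurons (adjusted p = 0.0106, but 0.12 and 0.135). The calls were also lost without cord replicate 1 (adjusted p = 0.0793) or replicate 2 (0.0959) in SOD1-mutant motor neurons, and without cord replicate 2 (0.055) in WT motor neurons.

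Mapt, which encodes tau, was the gene whose probe sets all fell. The brightest, 1455028_at, read 5350.0, 6686 and 7238 in SOD1-mutant motor neurons, 8281, 9741 and 7791 in WT motor neurons, and 16772, 17440.5 and 16587 in cord. The groups were separate, in the order cord, WT motor neurons and SOD1-mutant motor neurons from high to low, and the step between the motor neuron groups did not pass the test. The fall against cord was 2.65-fold in SOD1-mutant motor neurons (log2 change -1.41 ± 0.13, adjusted p = 3.73e-05) and 1.97-fold in WT motor neurons (-0.98 ± 0.10, adjusted p = 3.74e-05). Probe set 1424718_at read 5792, 5373 and 6153 in SOD1-mutant motor neurons, 7158, 6052 and 6527 in WT motor neurons, and 18461, 19295 and 18357 in cord. Its falls were 3.24-fold in SOD1-mutant motor neurons (-1.69 ± 0.10, adjusted p = 4.64e-06) and 2.84-fold in WT motor neurons (-1.51 ± 0.09, adjusted p = 1.77e-06). Probe set 1424719_a_at fell by 2.59-fold in SOD1-mutant motor neurons (adjusted p = 5.3e-05) and 2.30-fold in WT motor neurons (adjusted p = 5.32e-06), with 4309 to 5907 in SOD1-mutant motor neurons, 5480.3 to 5857 in WT motor neurons and 12443 to 13909 in cord.

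The steepest fall of all 24 was that of Mapt 1417885_at. It read 262, 426 and 30.3 in SOD1-mutant motor neurons, 593, 183 and 306 in WT motor neurons, and 6177, 7136 and 6892 in cord. Cord lay more than 10 times above every motor neuron array, and SOD1-mutant replicate 3 was below background. The fall was 36.4-fold in SOD1-mutant motor neurons (-5.19 ± 0.69, adjusted p = 0.000266) and 19.6-fold in WT motor neurons (-4.29 ± 0.35, adjusted p = 9.94e-06). The size in SOD1-mutant motor neurons rests on single arrays, with 19.0-fold (-4.25) without SOD1-mutant replicate 3 and 56.4-fold (-5.82) without SOD1-mutant replicate 2. After centring, the changes of the 4 Mapt probe sets in SOD1-mutant motor neurons lay between -4.34 and -0.53, all past the threshold. Of the same probe sets in WT motor neurons, 1424718_at (-0.60) and 1417885_at (-3.39) passed, while 1424719_a_at (-0.29, adjusted p = 0.0531) and 1455028_at (-0.07, adjusted p = 0.577) did not after centring.

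Map4, the member of the repeat family known from non-neuronal cells, fell on 3 of 5 probe sets in both comparisons with cord. Its brightest probe set, 1416091_at, read 10598, 7247 and 9973 in SOD1-mutant motor neurons, 9124, 10193 and 9132 in WT motor neurons, and 19170.2, 19711 and 19461 in cord. The motor neuron groups overlapped, and both lay well below cord. The fall was 2.12-fold in SOD1-mutant motor neurons (log2 change -1.09 ± 0.15, adjusted p = 0.000324) and 2.05-fold in WT motor neurons (-1.04 ± 0.08, adjusted p = 7.91e-06). Probe set 1416092_a_at fell by 2.33-fold in SOD1-mutant motor neurons (adjusted p = 8.11e-05) and 2.39-fold in WT motor neurons (adjusted p = 1.24e-05). After centring neither probe set passed, with changes of -0.24 and -0.37 in SOD1-mutant motor neurons and -0.13 and -0.35 in WT motor neurons.

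The other Map4 probe sets ranged from a steep fall to no call. Probe set 1439467_at read 214, 56.9 and 269 in SOD1-mutant motor neurons, 14.4, 198 and 211 in WT motor neurons, and 1719, 1435 and 1752 in cord. Cord was clear of both groups, in each of which 1 array lay below background. The fall was 9.50-fold in SOD1-mutant motor neurons (-3.25 ± 0.48, adjusted p = 0.0005) and 13.7-fold in WT motor neurons (-3.78 ± 0.67, adjusted p = 0.0011), and both held under the 3 scalings. Without WT replicate 1, which lay below background, the fall in WT motor neurons was 7.35-fold (-2.88). Probe set 1437855_at read 10531, 9538 and 7290.1 in SOD1-mutant motor neurons, 6577, 7279 and 6419 in WT motor neurons, and 8315, 5865 and 9634 in cord. Cord overlapped with both motor neuron groups. Its change against cord was 0.21 ± 0.21 in SOD1-mutant motor neurons (adjusted p = 0.396), and 1.06 after centring (adjusted p = 0.00376). In WT motor neurons the change was -0.20 ± 0.17 (adjusted p = 0.322), 0.70 after centring (adjusted p = 0.00501) and -0.41 (adjusted p = 0.0245) without cord replicate 2. The dimmest, 1443702_at, was above background on 1 SOD1-mutant, 1 WT motor neuron and 3 cord arrays and passed neither in SOD1-mutant motor neurons (adjusted p = 0.818) nor in WT motor neurons (adjusted p = 0.215), although its change in WT motor neurons was -1.50 (adjusted p = 0.0358) without WT replicate 2.

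Among the CRMPs, Crmp1 lay close to cord in both motor neuron groups. Its single probe set, 1448289_at, read 6982, 6241 and 7501 in SOD1-mutant motor neurons, 9094, 8025 and 9485 in WT motor neurons, and 8179, 8641 and 7603 in cord. WT motor neurons overlapped with cord, and SOD1-mutant motor neurons lay just below both. The log2 change against cord was -0.24 ± 0.12 in SOD1-mutant motor neurons (adjusted p = 0.109) and 0.12 ± 0.10 in WT motor neurons (adjusted p = 0.315). After centring they were 0.61 in SOD1-mutant motor neurons (adjusted p = 0.0215) and 1.03 in WT motor neurons (adjusted p = 0.000113).

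Dpysl2, the tubulin-binding CRMP2, had the brightest probe set of the 24, 1433770_at. It read 114353, 132502 and 120275 in SOD1-mutant motor neurons, 108792, 121550 and 107111 in WT motor neurons, and 89604, 98209 and 82216 in cord. All 6 motor neuron arrays lay above the 3 cord arrays, and the motor neuron groups overlapped. The rise was 1.36-fold in SOD1-mutant motor neurons (log2 change 0.44 ± 0.11, adjusted p = 0.00726) and 1.25-fold in WT motor neurons (0.32 ± 0.09, adjusted p = 0.00909), but its direction turned after quantile normalization, with -0.11 in SOD1-mutant motor neurons (adjusted p = 0.211) and -0.16 in WT motor neurons (adjusted p = 0.0235). The dim Dpysl2 probe set, 1450502_at, read 181, 117 and 89.5 in SOD1-mutant motor neurons, 225, 161 and 117 in WT motor neurons, and 513, 493 and 474 in cord. Only 1 SOD1-mutant and 2 WT motor neuron arrays were above background. It fell by 3.54-fold in SOD1-mutant motor neurons (adjusted p = 0.00402, but 0.0583 after quantile normalization and 0.0678 after centring) and by 2.81-fold in WT motor neurons (adjusted p = 0.00636, but 0.164 and 0.206).

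Dpysl3, or CRMP4, was the gene of the 8 whose probe sets all read higher in captured neurons. The brightest, 1454613_at, read 35254, 26973 and 33622 in SOD1-mutant motor neurons, 30668, 26076 and 30644 in WT motor neurons, and 14351, 12716 and 13742 in cord. Every motor neuron array stood above every cord array. The rise was 2.33-fold in SOD1-mutant motor neurons (log2 change 1.22 ± 0.13, adjusted p = 6.35e-05) and 2.14-fold in WT motor neurons (1.10 ± 0.09, adjusted p = 1.24e-05). Probe set 1438789_s_at, whose suffix marks probes that may match transcripts of more than 1 gene, read 3938, 4169.8 and 3819 in SOD1-mutant motor neurons, 4122, 6395 and 6272 in WT motor neurons, and 894, 817 and 1105 in cord. The cord arrays were again the lowest. Its rise was 4.20-fold in SOD1-mutant motor neurons (2.07 ± 0.17, adjusted p = 1.69e-05) and 5.79-fold in WT motor neurons (2.53 ± 0.20, adjusted p = 9.43e-06).

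The last Dpysl3 probe set, 1415877_at, read 10104, 3979 and 7119 in SOD1-mutant motor neurons, 11428, 7979 and 10105 in WT motor neurons, and 4547, 3458 and 4320.0 in cord. SOD1-mutant replicate 2 fell within the range of cord, and the other motor neuron arrays were above it. The rise in WT motor neurons was 2.38-fold (1.25 ± 0.16, adjusted p = 0.000141). In SOD1-mutant motor neurons the change was 0.69 ± 0.30 (adjusted p = 0.078), and it was 1.05 (adjusted p = 0.0016) without SOD1-mutant replicate 2. That change also passed after quantile normalization (0.96, adjusted p = 0.0158) and after centring (1.54, adjusted p = 0.00802). Scaling did not turn the direction of any Dpysl3 probe set, and the changes in WT motor neurons ranged from 0.82 to 3.11 after quantile normalization and reached 3.44 after centring.

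**Figure D3:**
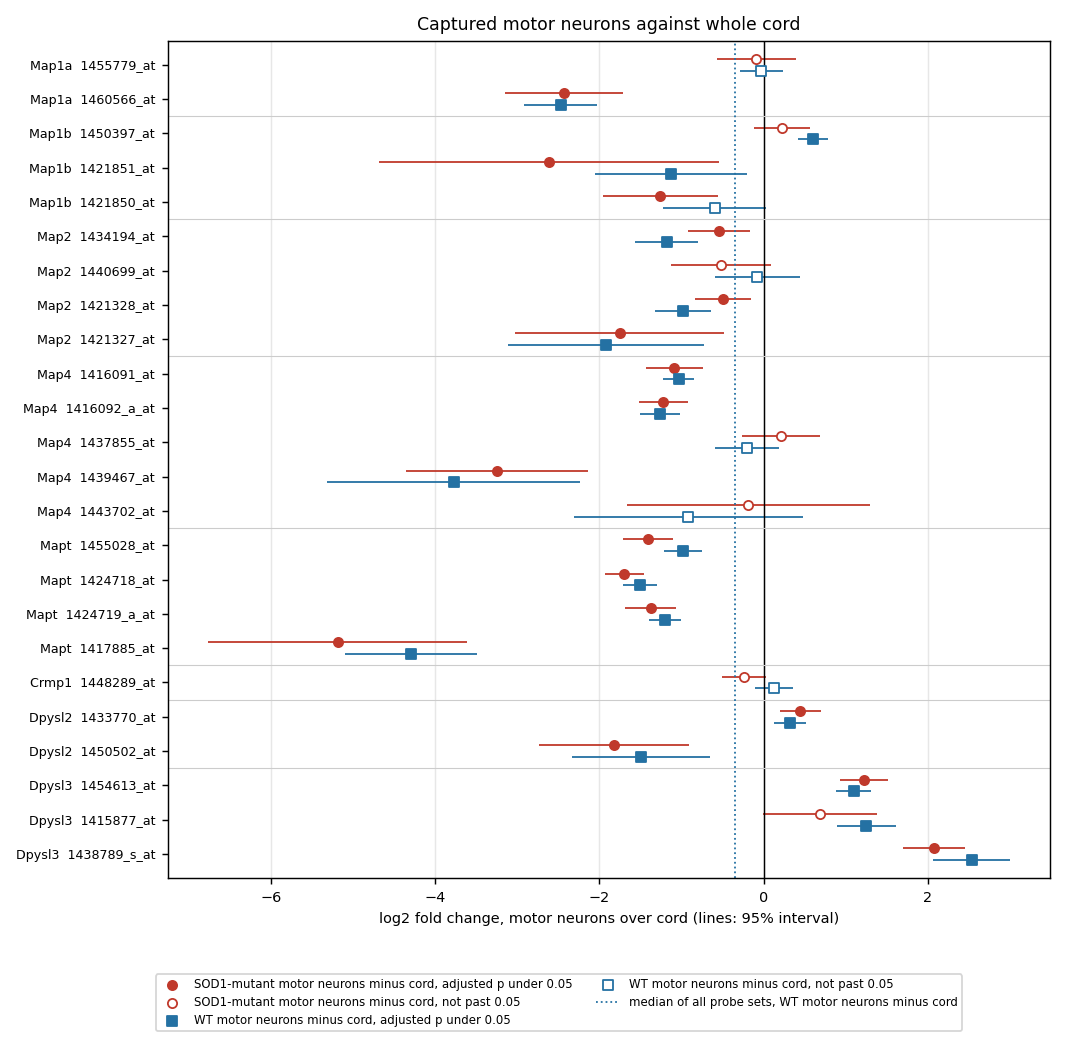
Log2 fold change over cord of the 24 probe sets in SOD1-mutant motor neurons (red circles) and WT motor neurons (blue squares), with 95% intervals, filled where the adjusted p is under 0.05. The dotted line is the median of all probe sets in WT motor neurons, -0.35. Changes run from -5.19 for Mapt 1417885_at to 2.53 for Dpysl3 1438789_s_at.

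Probe sets of 1 gene often gave different values. In WT motor neurons against cord the changes of a gene spanned 3.57 on the log2 scale for Map4, 3.31 for Mapt, 2.44 for Map1a, 1.84 for Map2, 1.81 for Dpysl2, 1.72 for Map1b and 1.44 for Dpysl3. Over all genes the median span was 0.97 for the 3468 genes with 2 probe sets tested, 1.62 for those with 3, 2.17 for those with 4 and 2.64 for those with 5. Map1b and Dpysl2 had calls in both directions, as did 25.5% of all genes with 3 probe sets tested and 12.4% of those with 2. With each gene represented by its brightest probe set, 2 of the 8 genes rose in SOD1-mutant motor neurons (Dpysl2 and Dpysl3) and 3 fell (Map2, Map4 and Mapt), where 28.4% of 12983 genes rose and 35.3% fell. For WT motor neurons 3 rose (Map1b, Dpysl2 and Dpysl3) and Map2, Map4 and Mapt fell, where 31.1% of genes rose and 36.1% fell. With each gene represented by the mean log2 value of its probe sets, 7 of the 8 genes passed in SOD1-mutant motor neurons and 6 in WT motor neurons. The share of all genes passing by such means is not given here, so these counts have no baseline. By these means Dpysl2 fell, by 0.69 on the log2 scale in SOD1-mutant motor neurons (adjusted p = 0.00176) and by 0.58 in WT motor neurons (adjusted p = 0.00277), where its brightest probe set rose. Map1a fell by 1.26 in SOD1-mutant motor neurons and by 1.25 in WT motor neurons, where its brightest probe set was not called. Map1b changed by -1.21 in SOD1-mutant motor neurons (adjusted p = 0.0117) and by -0.37 in WT motor neurons (adjusted p = 0.0542).

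Between the genotypes none of the 24 probe sets passed. Over all 27022 probe sets 60 passed (0.222%). The smallest adjusted p among the 24 was 0.206, and 7 of them had an unadjusted p under 0.05, where 15.2% of all probe sets did. The arrays of the genotypes did not overlap for 6 of the 24, where 22.3% of all probe sets did not overlap. The median log2 change of the 24 was -0.12, against -0.01 over all probe sets.

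Map2 1434194_at had the smallest adjusted p. Its log2 change was 0.63 ± 0.21 (95% interval 0.16 to 1.11, unadjusted p = 0.0131, adjusted p = 0.206), and the array values given above overlapped. For Map2 1421328_at every SOD1-mutant array was above every WT array, with a change of 0.49 (95% interval 0.04 to 0.94, adjusted p = 0.288), while Map2 1440699_at gave -0.44 (95% interval -1.11 to 0.24). For Map4 1437855_at the SOD1-mutant arrays were also all above, with 0.42 (95% interval 0.04 to 0.80, adjusted p = 0.29). The brightest Map4 probe set gave -0.05 (95% interval -0.43 to 0.33).

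The probe sets with every SOD1-mutant array below every WT array were Map1b 1450397_at, Map1b 1421850_at, Mapt 1455028_at and Crmp1 1448289_at. Their log2 changes were -0.38 (95% interval -0.70 to -0.05, adjusted p = 0.264) for Map1b 1450397_at and -0.66 (95% interval -1.48 to 0.16, adjusted p = 0.424) for Map1b 1421850_at. Mapt 1455028_at gave -0.43 (95% interval -0.80 to -0.05, adjusted p = 0.279), and the other Mapt probe sets gave -0.19, -0.17 and -0.89 with overlapping arrays. Crmp1 gave -0.36 (95% interval -0.70 to -0.02, adjusted p = 0.303). Dpysl3 1438789_s_at gave -0.46 (95% interval -0.91 to -0.02, adjusted p = 0.307), with SOD1-mutant replicate 2 above WT replicate 1. The narrowest interval was that of Dpysl2 1433770_at, 0.12 (95% interval -0.12 to 0.37), so a difference of more than 0.37 between the genotypes lay outside the interval for that probe set. The intervals of Map1b 1421851_at (-3.43 to 0.46) and Mapt 1417885_at (-2.64 to 0.86) were far wider.

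**Figure D4:**
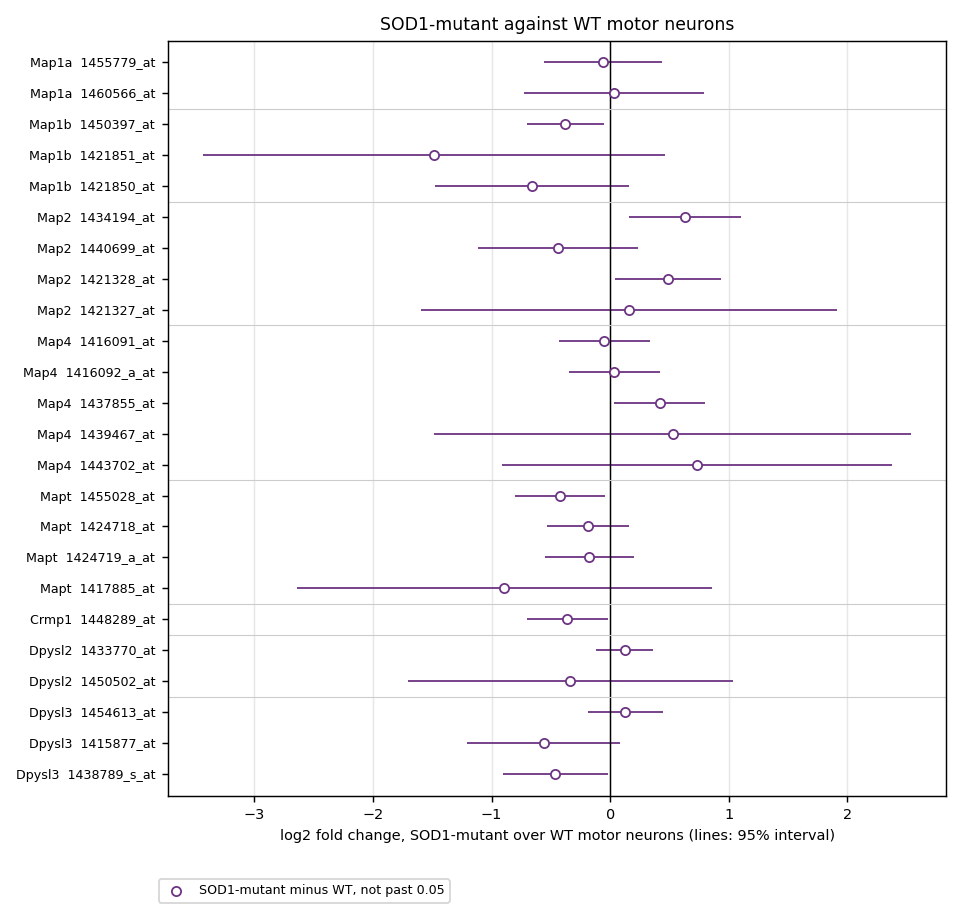
Log2 fold change of SOD1-mutant over WT motor neurons for the 24 probe sets (open circles, none with an adjusted p under 0.05), with 95% intervals. The intervals of 7 probe sets lie clear of 0 before adjustment, from 0.63 for Map2 1434194_at to -0.46 for Dpysl3 1438789_s_at.

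Markers of other cells and measures of the arrays were also set side by side between the genotypes. Summed astrocyte markers were 182262 to 197608 in SOD1-mutant motor neurons and 149146 to 162704 in WT motor neurons, against 386505 to 431579 in cord. Summed microglial markers were 9528 to 10932 in SOD1-mutant motor neurons and 7330.1 to 7767 in WT motor neurons, against 69382 to 74695 in cord. These sums, and those of the myelin markers, were higher in SOD1-mutant than in WT motor neurons on every array, while those of vessels and meninges (14267 to 15557 in SOD1-mutant motor neurons and 10696 to 16386 in WT motor neurons) and of interneurons (18610.3 to 34919.8 in SOD1-mutant motor neurons and 20591 to 23274 in WT motor neurons) overlapped. Such sums follow their brightest markers, and some markers, such as Mog, Slc1a2 and P2ry12, averaged lower in SOD1-mutant than in WT motor neurons. Of single markers, 1 of 10 for astrocytes rose (Gja1, a connexin, 2.38-fold, adjusted p = 0.017), and none of the 10 motor neuron, 9 myelin, 10 microglial, 9 vessel and 9 interneuron markers passed. The median log2 changes were 0.61 for astrocytes, -0.04 for motor neurons, 0.15 for myelin, 0.42 for microglia, 0.60 for vessels and 0.74 for interneurons. Background was 157 to 244 on SOD1-mutant motor neuron arrays and 131 to 147 on WT motor neuron arrays, with no overlap. SOD1-mutant replicate 2 had the highest background and the highest median signal (366) of the 6. The log2 ratio of the 3′ to the 5′ Actb control averaged 5.28 ± 0.59 in SOD1-mutant motor neurons and 4.53 ± 0.41 in WT motor neurons, with overlapping ranges, against 0.66 ± 0.03 in cord (SD, n = 3 each). The part of these differences in the values of the 8 genes was not tested.

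Other microtubule-associated proteins moved both ways against cord. Of 27 tested of 28 listed, 10 rose and 9 fell in SOD1-mutant motor neurons (median log2 change -0.24), and 11 rose and 10 fell in WT motor neurons (0.19), beside medians over all genes tested of -0.13 in SOD1-mutant motor neurons and -0.10 in WT motor neurons. Of all 12983 genes 28.4% rose and 35.3% fell in SOD1-mutant motor neurons, and 31.1% rose and 36.1% fell in WT motor neurons. Map9, a protein of the mitotic spindle, rose 3.90-fold in SOD1-mutant motor neurons (adjusted p = 7.16e-06) and 3.49-fold in WT motor neurons (4.53e-07). Map1lc3a, an autophagy protein first known as a light chain of the Map1 proteins, rose 2.94-fold in SOD1-mutant motor neurons (adjusted p = 9.47e-06) and 2.78-fold in WT motor neurons (7.43e-07). Its relative Map1lc3b rose 2.54-fold in SOD1-mutant motor neurons (adjusted p = 3.71e-05), with 1 of its 3 probe sets lower, and Tppp3, a tubulin polymerization-promoting protein, rose 2.98-fold in WT motor neurons (1.3e-06). Tppp, of the same family and known from oligodendrocytes, fell 4.59-fold in SOD1-mutant motor neurons (adjusted p = 2.12e-06) and 5.28-fold in WT motor neurons (1.65e-06). The other large falls in SOD1-mutant motor neurons were 4.46-fold for Nav1, a neuron navigator (adjusted p = 2.4e-05), and that of Dcx, a protein of migrating young neurons. Dcx averaged 235 in SOD1-mutant motor neurons, against 1045 in cord (adjusted p = 0.013), but it was above background on 1 of 3 SOD1-mutant arrays and was not called after quantile normalization (adjusted p = 0.0598). The other large falls in WT motor neurons were 5.39-fold for Map6d1, a relative of the microtubule stabiliser Map6 (adjusted p = 2.33e-05), and 4.61-fold for Map7, which recruits kinesin (3.98e-07).

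The other CRMP genes tested fell. Of Dpysl4, Dpysl5 and Dpys, 2 were tested and both fell in SOD1-mutant motor neurons (median log2 change -1.47) and in WT motor neurons (-1.01), as did 35.3% of all genes in SOD1-mutant motor neurons and 36.1% in WT motor neurons. Dpysl4 averaged 638 in SOD1-mutant motor neurons and 988 in WT motor neurons, against 3036 in cord, and fell by 4.77-fold in SOD1-mutant motor neurons (adjusted p = 5.39e-05) and 3.04-fold in WT motor neurons (adjusted p = 2.05e-05). Dpysl5 fell by 1.62-fold in SOD1-mutant motor neurons (adjusted p = 0.00599) and 1.34-fold in WT motor neurons (adjusted p = 0.0463), but its direction turned in SOD1-mutant motor neurons (0.02 after quantile normalization and 0.16 after centring, neither past the threshold) and in WT motor neurons (0.22, not past the threshold, and 0.49, adjusted p = 0.0482).

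The kinases and phosphatases that act on these proteins also moved both ways. Of 24 tested of 26 listed, 7 rose and 10 fell in SOD1-mutant motor neurons (median log2 change -0.19), and 5 rose and 11 fell in WT motor neurons (-0.21). Over all genes 28.4% rose and 35.3% fell in SOD1-mutant motor neurons (median -0.13), and 31.1% rose and 36.1% fell in WT motor neurons (median -0.10). Mark1, a kinase that frees tau from microtubules, rose 4.14-fold in SOD1-mutant motor neurons (adjusted p = 1.2e-05) and 3.18-fold in WT motor neurons (2.8e-06) on its brightest probe set, while 2 of its 5 probe sets fell. Mark4, a kinase of the same family, rose 3.11-fold in SOD1-mutant motor neurons (adjusted p = 2.41e-05), where 1 of its 2 probe sets fell, and 2.55-fold in WT motor neurons (3.52e-05). Prkaca, the catalytic subunit of protein kinase A, rose 3.57-fold in SOD1-mutant motor neurons (adjusted p = 1.3e-05) and 2.92-fold in WT motor neurons (1.75e-05), with its other probe set lower. Mapk8ip1, a scaffold of the JNK pathway, fell 23.4-fold in SOD1-mutant motor neurons (adjusted p = 4.65e-07) and 23.0-fold in WT motor neurons (7.56e-07). Camk2a, a calcium-dependent kinase, averaged 624 in SOD1-mutant motor neurons and 107 in WT motor neurons, against 5191 in cord, and fell in both (adjusted p = 0.00462 in SOD1-mutant and 9.32e-05 in WT motor neurons). No fold is given, because it was above background on 2 of 3 SOD1-mutant and 1 of 3 WT motor neuron arrays, and 1 of its 4 probe sets rose. Dyrk1a, a kinase that phosphorylates tau, fell 4.89-fold in SOD1-mutant motor neurons (adjusted p = 0.000129), and Ppp2cb, a catalytic subunit of protein phosphatase 2A, fell 4.05-fold in WT motor neurons (9.04e-05).

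In the semaphorin 3A pathway, in which the CRMPs act, the brightest probe sets of the ligand and its receptor were higher in captured neurons than in cord. Of 9 tested of 11 listed, 4 rose and 2 fell in both SOD1-mutant motor neurons (median log2 change 0.26) and WT motor neurons (0.28), where 28.4% of all genes rose and 35.3% fell in SOD1-mutant motor neurons, and 31.1% rose and 36.1% fell in WT motor neurons. Sema3a, the ligand, rose 5.35-fold in SOD1-mutant motor neurons (adjusted p = 3.21e-06) and 4.04-fold in WT motor neurons (6.42e-07), and the other of its 2 probe sets tested passed in neither. Nrp1, its binding receptor, rose 2.33-fold in SOD1-mutant motor neurons (adjusted p = 7.16e-05) and 2.17-fold in WT motor neurons (5.44e-05), with 3 of its 4 probe sets higher in each. Rac1, a GTPase downstream, fell 1.77-fold in SOD1-mutant motor neurons (adjusted p = 0.000771) and 1.76-fold in WT motor neurons (0.000833), and after centring its log2 changes were 0.03 in SOD1-mutant motor neurons and 0.09 in WT motor neurons, neither past the threshold. Plxna2, a signalling receptor, fell 2.05-fold in SOD1-mutant motor neurons (adjusted p = 0.000771) and 1.56-fold in WT motor neurons (0.00263), and after centring its log2 changes were -0.19 in SOD1-mutant motor neurons and 0.26 in WT motor neurons, neither past the threshold.

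Enzymes that sever or modify microtubules were mixed. Of 12 tested of 14 listed, 5 rose and 4 fell in SOD1-mutant motor neurons (median log2 change 0.47), and 4 rose and 4 fell in WT motor neurons (0.11). The shares over all genes were 28.4% higher and 35.3% lower in SOD1-mutant motor neurons, and 31.1% higher and 36.1% lower in WT motor neurons. Ttl, the ligase that adds tyrosine back to tubulin, rose 6.35-fold in SOD1-mutant motor neurons (adjusted p = 6.69e-06) and 6.29-fold in WT motor neurons (1.87e-07). Tbcb, a tubulin folding factor, rose 1.62-fold in SOD1-mutant motor neurons (adjusted p = 0.000235) and 2.16-fold in WT motor neurons (1.45e-06). Atat1, the tubulin acetyltransferase, fell 4.03-fold in SOD1-mutant motor neurons (adjusted p = 1.68e-05) and 3.83-fold in WT motor neurons (1.75e-05). Hdac6, which removes that acetyl group, fell 2.05-fold in SOD1-mutant motor neurons (adjusted p = 0.000178) and 1.60-fold in WT motor neurons (0.000939), and after centring its log2 changes were -0.19 in SOD1-mutant motor neurons and 0.23 in WT motor neurons, neither past the threshold.

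Between the genotypes no gene of these 5 lists passed. The median log2 changes were 0.01 for other microtubule-associated proteins, -0.46 for the other CRMP genes, -0.03 for kinases and phosphatases, -0.01 for the semaphorin pathway and -0.02 for severing and modifying enzymes, against -0.01 over all genes. Dpysl4 had a change of -0.65 ± 0.30 (adjusted p = 0.335) and Dpysl5 of -0.27 ± 0.22 (adjusted p = 0.594). Tbcb, at -0.42 ± 0.11, had an adjusted p of 0.136. Ttll7, also of the severing and modifying enzymes, had 0.11 (adjusted p = 0.663). Of other microtubule-associated proteins, Map1lc3a had 0.08 (adjusted p = 0.787) and Tppp3 -0.27 (0.304). Of the kinases and phosphatases, Ppp2r1a had 0.14 (adjusted p = 0.583) and Ppp2ca 0.13 (0.624). In the semaphorin pathway, Rac1 had -0.01 (adjusted p = 0.987) and L1cam 0.17 (0.561).

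For each of the 8, the genes whose brightest probe set followed its own most closely over the 9 arrays were sought among 12983 genes. Closeness was measured by the root mean square difference of centred log2 values. Predicted genes and those with Riken or clone names were passed over, so some of these may lie closer than the genes named. The nearest was Erc2 for Map1a (0.11), Smc1a for Map1b (0.06), Smurf2 for Map2 (0.11), Cdc42bpa for Map4 (0.09), Pld1 for Mapt (0.08), Praf2 for Crmp1 (0.05), Prnp for Dpysl2 (0.04) and Timm8a1 for Dpysl3 (0.07). The next were Safb and Pfdn2 for Map1a, Nelfb and Eif1ad for Map1b, Lekr1 and Rian for Map2, Fads6 and Apc2 for Map4, Capn5 and Rps10 for Mapt, Tusc3 and Spcs2 for Crmp1, Rpl13a and Nap1l5 for Dpysl2, and Odr4 and Psmc6 for Dpysl3. The SD of the patterns themselves ran from 0.19 for Crmp1 to 0.64 for Mapt. No gene of the 8 was among the nearest of another. The points are 9 arrays of 3 groups, so this likeness follows the differences between groups as well as those between arrays.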

How the data were processed

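RNA from SOD1-mutant motor neurons, WT motor neurons and WT whole cord was read on 3 single-channel arrays each. Groups came from the sample descriptions, and the titles number the replicates. The values are signal intensities on a linear scale, as deposited by the authors. Neither the labels nor the files name the software behind them or the protocols of capture and amplification. The trimmed mean, which drops 2% of probe sets at either end, was 2500 on all arrays.

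The 64 control probe sets among 45101 were left out. Values were taken as log2 after adding 20.3, the 10th percentile of the intensities, as a pseudocount, which shrinks folds of dim probe sets. Values below background were kept as read, so folds that rest on them are uncertain in size and are not lower bounds. The fits covered the 27022 probe sets with a mean over the 3 groups past the 40th percentile. Each comparison was fitted on its own 6 arrays with limma 3.58.1 in R 4.3.3 (lmFit, then eBayes with an intensity trend), two-sided. P-values were adjusted over all probe sets by the Benjamini-Hochberg method, at a threshold of 0.05. Folds are of log2 values with the pseudocount, and ± beside a change is its standard error. Background was the 95th percentile of 27 Bacillus subtilis control probe sets on each array. A gene is represented by its brightest probe set unless stated. The platform annotation, which can be old, pairs 34945 probe sets with 1 gene, 932 with several and 9160 with no gene, and those with several were not named.

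The 8 genes, the 5 context lists (other microtubule-associated proteins, other CRMP and dihydropyrimidinase genes, their kinases and phosphatases, the semaphorin 3A pathway, and severing and modifying enzymes), the markers of 6 cell types and the tests were chosen with earlier results of these data known. From a context list the rule allowed the 3 passing genes with the largest rise and the 3 with the largest fall, or the 2 brightest where none passed, and the text describes some of them. For the genotype comparison, where none passed, the 2 brightest of each list are given. Gja1, Chat and the markers below background were picked after their values were seen, as was the order in which probe sets are described. Promoters came from RefSeq (GRCm38.p6), which was used for no other coordinate. The fits were tested on simulated arrays. Alternatives were quantile normalization, median centring, other filters and pseudocounts, 1 fit of 9 arrays, no trend, array weights, a replicate block, leaving out probe sets shared between genes, gene means, raising values to background and leaving out each array. Python 3.11.15 and matplotlib 3.10.9 drew the figures.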

Additional observations from a re-analysis of the deposited data

How the results depend on the processing

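Counts of calls among the 24 probe sets in each comparison with cord stayed within 1.5 times under most settings. In SOD1-mutant motor neurons against cord the number higher was 3, but 8 after centring and 6 with array weights, and the number lower was 14, but 6 after centring. For WT motor neurons against cord the number higher was 5, but 3 after quantile normalization and 9 after centring, and the number lower was 13, but 4 after centring. Leaving out 1 array gave 13 to 20 calls, where there were 17, in SOD1-mutant motor neurons (3 to 5 higher, 10 to 15 lower, 4 to 6 genes, 14255 to 17903 of all probe sets) and 17 to 20, where there were 18, in WT motor neurons (5 higher, 12 to 15 lower, 6 genes, 15477 to 18336 of all). In SOD1-mutant motor neurons the 5 higher were reached without SOD1-mutant replicate 2. Between the genotypes none of the 24 passed except with array weights, which gave 14 (7 higher and 7 lower, 5 genes). Those weights were 5.47 and 10.8 for replicate 3 of SOD1-mutant and WT motor neurons and 0.281 to 0.429 for the other 4 arrays, so that fit rests on 1 array a group, and in WT motor neurons against cord the weights did not converge. The 60 calls over all probe sets between the genotypes became 32 after quantile normalization, 20 after centring, 1184 with all 9 arrays in 1 fit, 3 without the trend, 13777 with array weights, 443 with the replicate number as a block and 99 with values raised to background, and 6 to 71 with 1 array left out (7 without SOD1-mutant replicate 3, and 11, 13 and 6 without WT motor neuron replicates 1, 2 and 3). Same-numbered arrays of the motor neuron groups correlated at 0.15, 0.17 and 0.002 in their deviations from the group means. Differently numbered arrays of these groups correlated at -0.18 to 0.06. Same-numbered arrays in the comparisons with cord correlated between -0.04 and 0.03. With 3 arrays a group, these values cannot decide whether the numbers pair the samples. The replicate block changed the call of 1 of the 24 probe sets, Dpysl3 1415877_at in SOD1-mutant motor neurons against cord (0.69, adjusted p = 0.0143). Among values called before or after the change of setting, directions reversed after quantile normalization were those of Dpysl2 1433770_at in SOD1-mutant (-0.11) and WT motor neurons (-0.16) and Map2 1421328_at in SOD1-mutant motor neurons (0.10). After centring they were those of Map2 1421328_at (0.35), Map2 1434194_at (0.30), Crmp1 1448289_at (0.61) and Map1a 1455779_at (0.76) in SOD1-mutant motor neurons, and Map4 1437855_at (0.70), Map2 1440699_at (0.83) and Map1a 1455779_at (0.88) in WT motor neurons. Other signs, such as those of Map1b 1450397_at, Map2 1440699_at and Map4 1443702_at in SOD1-mutant motor neurons, turned after quantile normalization with a call under neither setting. Map1a 1455779_at also turned with array weights, to 0.34 in SOD1-mutant motor neurons against cord and to 0.30 between the genotypes (adjusted p = 0.028). Of 403 values of single probe sets under other settings per comparison, 361 in SOD1-mutant and 370 in WT motor neurons against cord, and 389 between the genotypes, kept their side of the threshold without a called change of sign. The causes were not tested, and signal near background limits Map2 1421327_at, Map4 1439467_at and 1443702_at, Mapt 1417885_at and Dpysl2 1450502_at. The sizes of any folds printed for these are uncertain, as for Camk2a, for which no fold is given.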
